A study of Mus musculus with 17 samples.

Results

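The corticosteroid receptors of the mouse hippocampus and the genes that report on their activity were followed through aging. They were 8 of the 38355 gene identifiers counted in each library, chosen by name: the glucocorticoid receptor Nr3c1, the mineralocorticoid receptor Nr3c2, the glucocorticoid-reactivating enzyme Hsd11b1, the corticotropin-releasing hormone receptor Crhr1, and the glucocorticoid-induced genes Fkbp5, Sgk1, Tsc22d3 and Zbtb16. They were taken by name and not by a threshold on any measured value, but with earlier results of these data known. All 8 passed the filter on low counts in both comparisons. PolyA RNA came from hand-dissected hippocampi of untreated wild type C57BL/6J mice. One experiment set mice of 24 months (24M, 6 libraries) against mice of 3 months (3M, 5 libraries) in single-end libraries. The other set mice of 29 months (29M, 3 libraries) against mice of 3 months (3M, 3 libraries) in paired-end libraries. The 2 comparisons share no library, and age and library type cannot be told apart between 24M and 29M. The labels number the libraries without naming the animals, or saying whether the 3M groups share any, so p-values measure the spread between these samples. The sources used here give neither the sex of the mice nor the hour at which they were killed, and in whole tissue fewer cells of a type and less RNA per cell cannot be told apart.

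Corticosterone, the main glucocorticoid of mice, enters the brain from the blood and binds both receptors. The mineralocorticoid receptor binds it with high affinity and is abundant in hippocampal neurons, while the glucocorticoid receptor is occupied mainly when the hormone is high, at the daily peak or in stress. Bound receptors move to the nucleus, where they attach to glucocorticoid response elements and change the transcription of genes such as Fkbp5 and Sgk1. The hippocampus is known as a brain region through which the hormone restrains its own secretion.

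The 3M single-end libraries held 19144461 to 28438296 counts on genes, and those of 24M held 9213474 to 19756411. The paired-end libraries held 10977976 to 15054972 counts at 3M and 10991389 to 13563541 at 29M. Levels are given as CPM, counts scaled to a common library size with TMM factors. Replicates 1 and 4 of the 24M group differed from each other by less than sampling noise and entered as 1 sample (their mean), which leaves 5 samples at 24M. A library of each single-end group stood apart from the rest of it. In 3M single-end replicate 4 the 10 striatal markers summed to 438 CPM, against 114 to 181 in the other 4 libraries of that group, and the 7 neocortical markers summed to 348 CPM against 228 to 269. In 24M replicate 2 the 5 red blood cell markers summed to 544 CPM, against 76.3 to 159 in the other 4 samples at 24M and 53.3 to 108 at 3M. The 14 markers of hippocampal pyramidal and granule cells were detected in every group, with Neurod6 the most abundant per length. Their sum was 1821 ± 121 CPM (SD, n = 5) at 3M and 1920 ± 144 (n = 5) at 24M in single-end libraries, and 1824 ± 46.1 (n = 3) at 3M and 1792 ± 14.6 (n = 3) at 29M in paired-end libraries.

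Per length of exon, the mineralocorticoid receptor was the most abundant member in all 4 groups. Levels on this scale were CPM per kilobase of annotated exon. At 3M in single-end libraries they were 36.6 ± 5.03 for Nr3c2 (SD, n = 5) and 16.1 ± 2.18 for Nr3c1, and no Nr3c2 value overlapped those of the member ranked below it in any group. Sgk1 ranked second in every group, with 17.6 ± 5.07 at 3M and 25.8 ± 1.41 at 24M. In the 3M single-end group the values of Sgk1 and Nr3c1 overlapped, as did those of Nr3c1 and Tsc22d3 and those of Tsc22d3 (12.1 ± 1.61) and Zbtb16 (10.6 ± 1.93). At 24M the values of Sgk1 lay above all those of Nr3c1. Hsd11b1 (6.95 ± 0.69), Fkbp5 (6.74 ± 0.78) and Crhr1 (4.92 ± 0.91) were the lowest at 3M, with overlap between neighbours. In the other 3 groups Fkbp5 lay above Hsd11b1 and Hsd11b1 above Crhr1 without overlap. Annotated exons include isoforms that the hippocampus may not use, so genes with many transcripts may be placed too low.

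Neither receptor gene was called different with age. A gene was called where its adjusted p was at most 0.05 and its absolute log2 fold change at least 0.5, by the quasi-likelihood test of edgeR, with p-values adjusted (Benjamini-Hochberg) over all genes tested. Nr3c1 (ENSMUSG00000024431, GRCm38 chr18:39410545-39519421, minus strand) encodes the glucocorticoid receptor. Its levels at 3M in single-end libraries were 108, 117, 119, 122 and 152 CPM, and those at 24M were 126, 135, 135, 118 and 129 CPM. The 24M values fell inside the 3M range. The log2 fold change was 0.06 (SE 0.08, 95% confidence interval -0.11 to 0.23, edgeR adjusted p = 0.671). In paired-end libraries Nr3c1 gave 113, 115 and 118 CPM at 3M and 115, 109 and 113 at 29M. These groups overlapped as well, with a log2 fold change of -0.04 (SE 0.04, interval -0.13 to 0.04, edgeR adjusted p = 0.634).

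Nr3c2 (ENSMUSG00000031618, chr8:76899442-77245012, plus strand) encodes the mineralocorticoid receptor. It shares 247 exon bases with Gm10649 on the opposite strand, and the kit named in the study's methods does not mark strand, so reads in those bases cannot be assigned to either gene with certainty. Its levels in single-end libraries were 224, 231, 252, 194 and 282 CPM at 3M and 249.96, 239, 276, 239 and 229.5 CPM at 24M. The groups overlapped throughout, and the log2 fold change was 0.06 (SE 0.08, interval -0.12 to 0.24, edgeR adjusted p = 0.688). Without 3M replicate 4 its sign turned (-0.0033, edgeR adjusted p = 0.984). In paired-end libraries the values were 223, 221 and 221 CPM at 3M and 212, 209.6 and 211 at 29M. The 3 samples at 29M all lay below the 3 at 3M, a separation shown in one direction or the other by 22.4% of the genes tested there, and the difference was small, with a log2 fold change of -0.07 (SE 0.03, interval -0.14 to -0.0035), and missed the threshold after adjustment (edgeR adjusted p = 0.264).

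**Figure D1:**
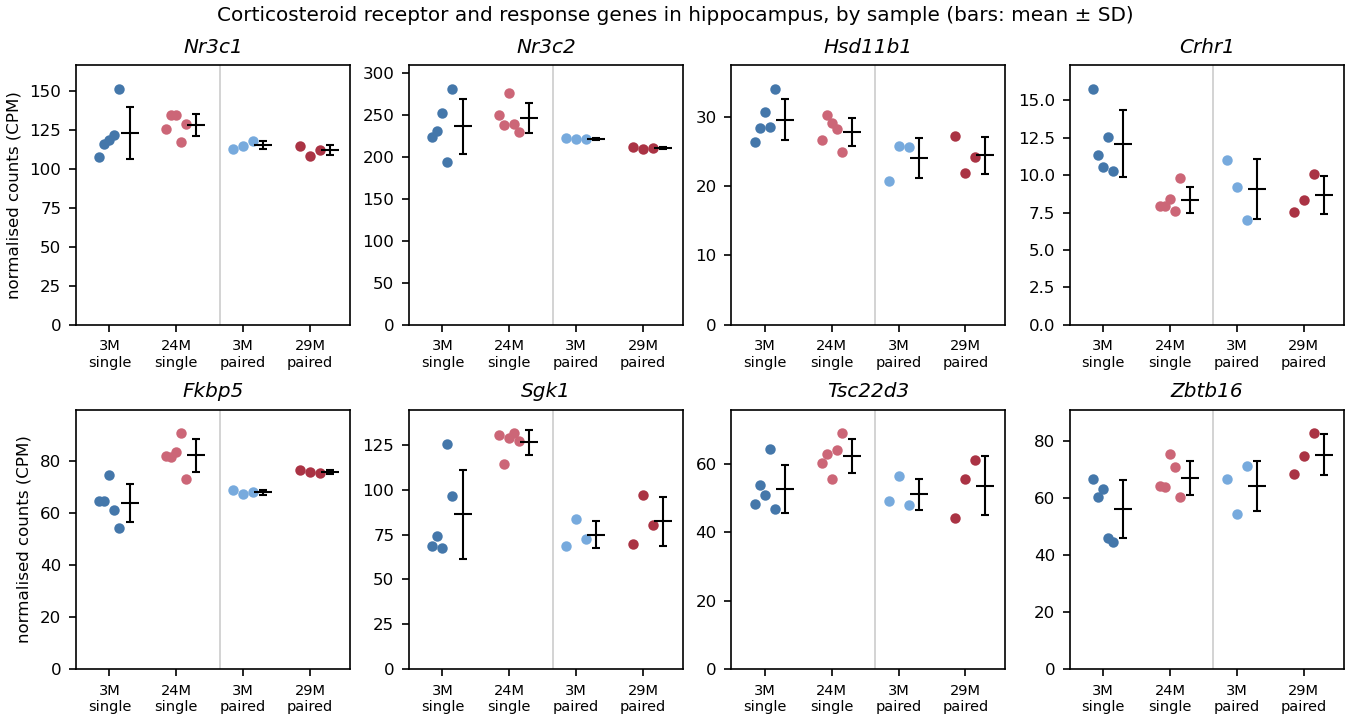
Normalised counts (CPM, axes from 0) of the 8 genes in each sample of the 4 groups, with the mean and SD beside the points; single-end groups stand left of the grey line and paired-end groups right of it. The 24M values of Crhr1 lie below all 3M values of the same experiment, and the 24M values of Sgk1 lie above 4 of the 5 at 3M.

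Hsd11b1 (ENSMUSG00000016194, chr1:193221634-193264075, minus strand) encodes the enzyme that regenerates active glucocorticoid from its inert 11-keto form inside cells. Single-end levels were 26.3, 28.3, 30.6, 28.5 and 34.0 CPM at 3M and 26.6, 30.2, 29.1, 28.2 and 24.9 CPM at 24M. The groups overlapped, with a log2 fold change of -0.08 (SE 0.08, interval -0.25 to 0.08, edgeR adjusted p = 0.51). Paired-end levels were 20.7, 25.8 and 25.6 CPM at 3M and 27.2, 21.9 and 24.2 at 29M. They overlapped too, with a log2 fold change of 0.02 (SE 0.10, interval -0.19 to 0.23, edgeR adjusted p = 0.938).

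Crhr1 fell at 24M and was the one member whose single-end groups did not overlap. Crhr1 (ENSMUSG00000018634, chr11:104132855-104175523, plus strand) is the receptor through which corticotropin-releasing hormone starts the release of corticotropin in the pituitary and acts on neurons of the forebrain. Its levels at 3M were 15.8, 11.4, 10.5, 12.6 and 10.3 CPM, and at 24M 7.92, 7.97, 8.40, 7.58 and 9.78 CPM. Every 24M sample lay below every 3M sample, a separation that 6.57% of the genes tested showed in one direction or the other. The level was 0.68 times that at 3M, a log2 fold change of -0.55 (SE 0.12, interval -0.81 to -0.28, edgeR adjusted p = 0.0267). The call was lost without 3M replicate 1 (log2 fold change -0.43, adjusted p = 0.0445), without 3M replicate 4 (-0.53, adjusted p = 0.0519) and without 24M replicate 2, the library with the high red blood cell markers (-0.53, adjusted p = 0.076), all by edgeR. It was also lost without the sample made of 24M replicates 1 and 4 (-0.53, edgeR adjusted p = 0.068) and, on fold change, by DESeq2 with a prior on fold changes (-0.43). In paired-end libraries Crhr1 gave 11.0, 9.23 and 7.01 CPM at 3M and 7.57, 8.37 and 10.1 at 29M. The groups overlapped, with a log2 fold change of -0.06 and a wide interval of -0.41 to 0.28 (SE 0.16, edgeR adjusted p = 0.883).

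Of the glucocorticoid-induced genes, Sgk1 rose at 24M past both thresholds, Fkbp5 passed the adjusted p with a smaller change, and Tsc22d3 and Zbtb16 passed neither. Sgk1 (ENSMUSG00000019970, chr10:21882184-21999903, plus strand) encodes a kinase that regulates ion channels and transporters and is induced by both receptors. The binding motif of the receptors, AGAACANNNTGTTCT, has 2 arms of 6 bases in opposite orientation around a spacer of 3 bases, and it reads the same on both strands. It was searched in RefSeq promoter windows of 300 bases (250 before and 50 after each start, GRCm38.p6), and 3 of 32851 windows held it (0.00913%), 1 of them a window of Sgk1. A single arm (AGAACA or TGTTCT, either strand, those in the full motif included) stood in 6233 windows (19%). Of 13 windows for Nr3c2, Fkbp5, Sgk1, Tsc22d3, Hsd11b1 and Crhr1, 4 held an arm, 3 of Sgk1 and 1 of Tsc22d3. The stretch with the full motif and the arm found for Tsc22d3 are shown because both genes are induced by glucocorticoids. They are written 5′ to 3′ on the gene's strand with the matched bases in capitals, and a match in this window is a description and not a site of binding.
Sgk1, chr10:21993693-21993722, motif beginning 189 bases before the start: atgcggaaAGAACAgaaTGTTCTcggagat
Tsc22d3, chrX:140600690-140600719, arm beginning 185 bases before the start: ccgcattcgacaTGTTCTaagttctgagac

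The Sgk1 levels at 3M in single-end libraries were 68.3, 74.3, 67.4, 126 and 96.5 CPM, and those at 24M were 131, 114, 129, 132 and 127 CPM. In 3M, 4 libraries lay below all 24M samples, while 3M replicate 4, the library with the high striatal and neocortical markers, lay inside the 24M range. The level at 24M was 1.47 times that at 3M, a log2 fold change of 0.55 (SE 0.14, interval 0.24 to 0.86, edgeR adjusted p = 0.042). Without 3M replicate 4 the log2 fold change was 0.72 (edgeR adjusted p = 0.00214). The call stood close to its threshold and was lost without 3M replicate 1 (0.48, edgeR adjusted p = 0.0967), replicate 2 (0.50, adjusted p = 0.0827) or replicate 3 (0.47, adjusted p = 0.0757). It was also lost without 24M replicate 2 (0.59, edgeR adjusted p = 0.0811), replicate 3 (0.54, adjusted p = 0.0829), replicate 5 (0.53, adjusted p = 0.0627) or replicate 6 (0.55, adjusted p = 0.0702), and without the sample made of replicates 1 and 4 (0.54, adjusted p = 0.0919), so that no 24M sample could be left out without losing it. DESeq2 with a prior on fold changes gave 0.37, under the fold threshold. In paired-end libraries Sgk1 gave 68.7, 83.6 and 72.7 CPM at 3M and 69.9, 96.9 and 80.1 at 29M. These groups overlapped, with a log2 fold change of 0.13 (SE 0.10, interval -0.08 to 0.34, edgeR adjusted p = 0.55).

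Fkbp5 (ENSMUSG00000024222, chr17:28399094-28517527, minus strand) encodes a co-chaperone that lowers the affinity of the glucocorticoid receptor for its hormone, and as a target of that receptor it closes a short feedback loop. Single-end levels were 64.7, 64.4, 74.7, 61.0 and 54.3 CPM at 3M and 81.8, 81.6, 83.5, 90.7 and 73.2 CPM at 24M. The groups met only where 3M replicate 3 exceeded 24M replicate 6. The log2 fold change of 0.37 (1.29-fold, SE 0.08, interval 0.20 to 0.53) passed the adjusted p by edgeR (0.0226) and stayed under the fold threshold. The edgeR adjusted p was above 0.05 without 24M replicate 2 (0.0599), without 24M replicate 3 (0.0512) and without the sample made of 24M replicates 1 and 4 (0.055). In paired-end libraries the values were 68.9, 67.1 and 67.9 CPM at 3M and 76.5, 75.6 and 75.2 at 29M. Both groups were tight, with SDs of 0.90 and 0.64 CPM. All 29M samples lay above all 3M samples, a separation that 22.4% of the genes tested there showed in one direction or the other, with a log2 fold change of 0.16 (SE 0.05, interval 0.06 to 0.26, edgeR adjusted p = 0.0962).

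Tsc22d3 (ENSMUSG00000031431, chrX:140539528-140600659, minus strand) encodes the glucocorticoid-induced leucine zipper, an inhibitor of inflammatory transcription. Its single-end levels were 48.1, 53.7, 50.8, 64.2 and 46.6 CPM at 3M and 60.1, 62.9, 55.4, 64.0 and 68.9 CPM at 24M. The highest 3M value was again that of replicate 4, and the groups overlapped through it. The log2 fold change was 0.24 (SE 0.09, interval 0.06 to 0.42, edgeR adjusted p = 0.101). Paired-end levels were 49.0, 56.3 and 48.0 CPM at 3M and 44.2, 55.5 and 61.0 at 29M. They overlapped, with a log2 fold change of 0.07 (SE 0.10, interval -0.15 to 0.28, edgeR adjusted p = 0.793).

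Zbtb16 (ENSMUSG00000066687, chr9:48654297-48836222, minus strand) encodes a zinc finger transcription factor induced by glucocorticoids in many cells. At 3M its single-end levels were 66.7, 60.3, 63.0, 45.8 and 44.6 CPM, with replicates 4 and 5 apart from the others, and at 24M they were 64.2, 63.8, 75.5, 71.0 and 60.4 CPM. The groups overlapped, with a log2 fold change of 0.26 (SE 0.11, interval 0.02 to 0.49, edgeR adjusted p = 0.156). Paired-end levels were 66.8, 54.5 and 71.3 CPM at 3M and 68.3, 74.7 and 82.8 at 29M. The log2 fold change there was 0.24 (SE 0.09, interval 0.04 to 0.43, edgeR adjusted p = 0.201), and these groups overlapped too. With one library left out it ran from 0.18 to 0.33 at 24M and from 0.13 (without 3M replicate 2) to 0.32 at 29M. Without the filter on low counts the adjusted p of Zbtb16 at 29M was 0.00519 by edgeR.

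**Figure D2:**
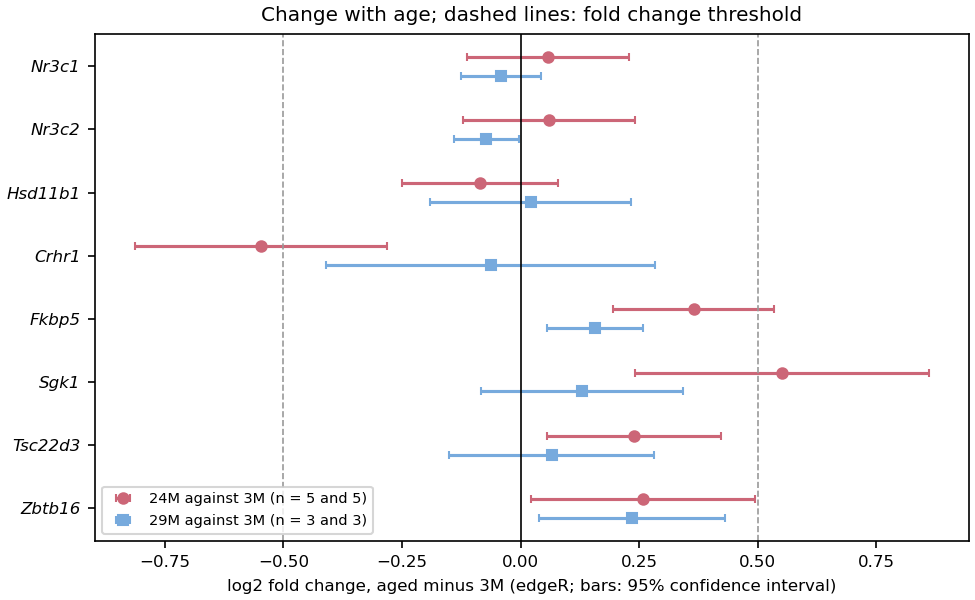
Log2 fold change of each gene, aged minus 3M, with its 95% confidence interval from edgeR for 24M (red circles, n = 5 and 5 samples) and 29M (blue squares, n = 3 and 3). The dashed lines mark the fold change threshold of 0.5, which the points of Sgk1 and Crhr1 pass at 24M.

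Counted over the 8 genes, 2 were called at 24M, Sgk1 higher and Crhr1 lower, while 1.98% of the 15683 genes tested were called, 1.34% higher and 0.638% lower. An adjusted p of at most 0.05 at any fold change was reached by 3 of the 8 (Sgk1, Fkbp5 and Crhr1) and by 5.58% of all genes tested. The median log2 fold change of the 8 was 0.15, with 6 above 0, beside -0.0032 over all genes tested. The 8 were chosen with earlier results of these data known, so these shares are a description. The counts moved with single libraries. By edgeR 0 members were called without 3M replicate 1 and 0 without 24M replicate 2, and of the 3 that passed the adjusted p, 0 did without 24M replicate 2 and 1 without 24M replicate 3. Without the sample made of 24M replicates 1 and 4, 0 members were called and 0 passed the adjusted p. Without 3M replicate 2, 3 or 4, or without 24M replicate 3, 5 or 6, 1 was called. At 29M edgeR called 0 of the 8, and DESeq2 also 0, while 3 had an unadjusted p under 0.05 (Fkbp5, Zbtb16 and Nr3c2), as had 2619 of the 15097 genes tested there. Of all 15097 genes tested there, 1.45% were called, 1.34% higher and 0.113% lower, and 2.99% passed the adjusted p at any fold change. The median of the 8 was 0.04, beside -0.0021 over all genes.

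The difference between the 29M and the 24M effect was tested in one fit of all 4 groups. edgeR called 0% of 16055 genes (0 genes, and 0 by DESeq2 as well), with 1674 at an unadjusted p under 0.05. For Crhr1 the effects differed by 0.48 on the log2 scale (SE 0.22, interval 0.01 to 0.95, edgeR adjusted p = 0.469). For Sgk1 the difference was -0.42 (SE 0.23, interval -0.90 to 0.05, edgeR adjusted p = 0.518), and for Fkbp5 it was -0.21 (SE 0.11, interval -0.45 to 0.02, adjusted p = 0.509). So the changes of Sgk1 and Crhr1 at 24M were not shown to differ from those at 29M. Across the 3M groups, Crhr1 averaged 12.1 CPM in single-end and 9.09 in paired-end libraries, and Sgk1 86.4 and 74.99, levels that library type and experiment both separate.

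**Figure D3:**
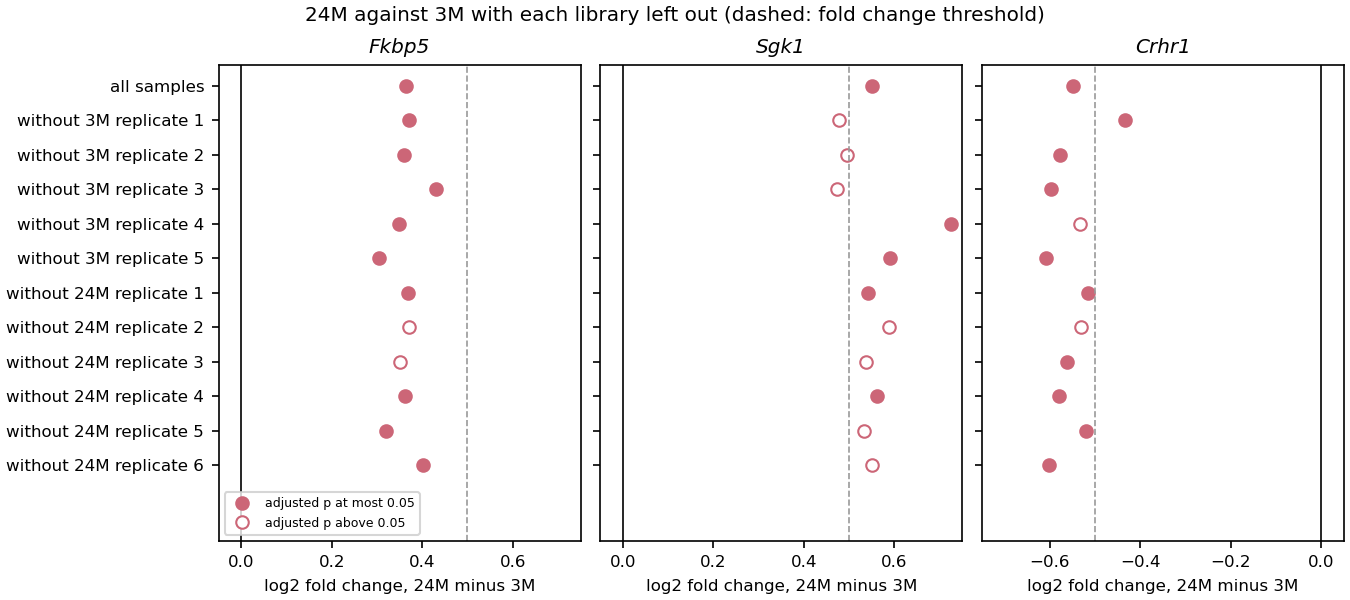
Log2 fold change of Fkbp5, Sgk1 and Crhr1, 24M minus 3M, with all samples and with each library left out in turn, filled where the edgeR adjusted p is at most 0.05 and open where it is above. All points keep their sign, and 7 of the 11 for Sgk1 with a library left out are open.

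Marker lists of neighbouring tissue, of blood and of recent neuronal activity were summed in the same samples. The 7 neocortical markers, led per length by Lamp5 at 3M, summed to 251, 269, 228, 348 and 251 CPM at 3M in single-end libraries and to 208, 197, 185, 189 and 202 at 24M. Each of the 7 had a lower estimate at 24M, 3 of them called beside 0.638% of all genes called lower, and their median log2 fold change was -0.53. The 10 striatal markers, led by Ppp1r1b, summed to 149, 153, 114, 438 and 181 CPM at 3M and to 138, 155, 121, 157 and 156 at 24M, and the median log2 fold change of the 9 tested was -0.63. Of these 9, 0 were called and 0 passed the adjusted p. In paired-end libraries the striatal sum was 131, 149 and 161 CPM at 3M and 142, 157 and 141 at 29M. The median there was -0.08, and 1 of 9 tested was called lower, beside 0.113% of all genes. The 16 immediate early genes, which neurons switch on within minutes of activity, summed to 718, 659.6, 955, 1299 and 912 CPM at 3M and to 628, 669, 642, 644 and 596 at 24M, with 6 of the 16 called lower, again beside 0.638%. No marker of these lists was at 0 in any group. In paired-end libraries the neocortical sum was 209, 189 and 207 CPM at 3M and 186, 174 and 203 at 29M, and the immediate early sum 662, 671 and 596 at 3M and 605, 629 and 755 at 29M. At 24M the log2 fold changes of the 7 thalamus and habenula markers centred on a median of -0.12, with 3 above 0, and those of the 7 choroid plexus markers on 0.10, with 7 above 0. The choroid plexus sums ran from 2042 to 8453 CPM at 3M and from 4653 to 7813 at 24M in single-end libraries. In paired-end libraries they ran from 3474 to 6356 CPM at 3M and from 4119 to 6279 at 29M. The 5 red blood cell markers had higher estimates at both ages, with medians of 1.32 and 0.79. Their sums were 53.3, 108, 68.0, 85.8 and 79.9 CPM at 3M and 159, 544, 96.5, 135 and 76.3 at 24M, and 70.6, 83.7 and 72.6 CPM at 3M and 75.9, 155 and 165 at 29M.

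Some markers of glia also moved with age. Of 6 microglial markers, led by Csf1r, all had higher estimates at both ages, and their log2 fold changes centred on medians of 0.32 (24M) and 0.35 (29M). The adjusted p was passed by 3 of them at 24M and 4 at 29M, beside 5.58% and 2.99% of all genes. At each age 1 was called higher, P2ry12 at 24M and Tmem119 at 29M, beside 1.34% of all genes. They summed to 253 ± 14.1 CPM (SD, n = 5) at 3M and 296 ± 7.38 (n = 5) at 24M, and to 234 ± 2.47 (n = 3) at 3M and 292 ± 2.29 (n = 3) at 29M. Among 8 astrocyte markers, led by Slc1a2, 6 were above 0 at 24M and 7 at 29M, with medians of 0.05 at both ages, and 3 and 2 passed the adjusted p. S100b, a calcium-binding protein, passed it at both ages under the fold threshold (0.49, edgeR adjusted p = 0.000172, and 0.39, adjusted p = 0.00041), and the water channel Aqp4 at 24M (0.40, adjusted p = 0.0279). Gfap, an intermediate filament protein of astrocytes, was called, higher at 24M (0.66, edgeR adjusted p = 8.8e-05) and at 29M (0.80, adjusted p = 7.4e-07), where 1.34% of all genes were at each age. Aldh1l1 (-0.26, edgeR adjusted p = 0.0516) and Aldoc (-0.09, 0.373) had lower estimates at 24M. Among 5 markers of oligodendrocyte precursors the medians were -0.15 and -0.18, with 1 above 0 at each age. Gpr17, a receptor of these cells, was called lower at 24M (-0.997, edgeR adjusted p = 0.000109) and at 29M (-0.95, adjusted p = 2.8e-05), where 0.638% and 0.113% of all genes were. The 9 oligodendrocyte markers, led by Mbp, had medians of 0.02 and 0.22, with 5 and 6 above 0. Their sums also spread widely, from 3245 to 5658 CPM at 3M and from 4712 to 5410 at 24M in single-end libraries. In paired-end libraries these sums ran from 3621 to 5029 CPM at 3M and from 4559 to 5127 at 29M. Of 7 endothelial markers 4 were above 0 at 24M and 1 at 29M, with medians of 0.07 and -0.11. Cldn5, a tight junction protein, was called lower at 24M (-0.60, edgeR adjusted p = 0.0242), where 0.638% of all genes were. The 10 neuronal markers had medians of -0.06 and -0.07, with 4 and 2 above 0. No marker of these lists was at 0 in any group. The part of all these markers in the changes of Sgk1, Fkbp5 and Crhr1 was not tested.

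**Figure D4:**
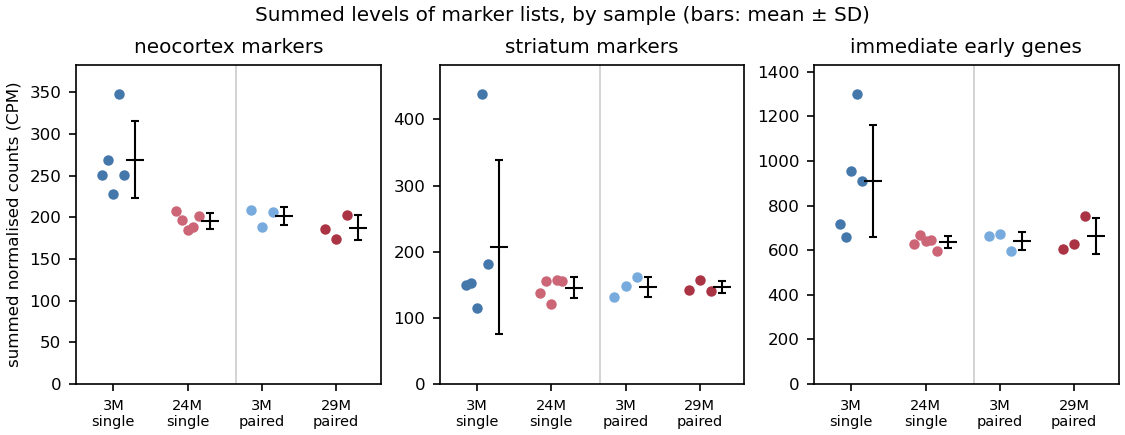
Summed normalised counts (CPM, axes from 0) of 3 marker lists in each sample, with the mean and SD of each group beside the points. Replicate 4 of the 3M single-end group has the highest value of that group in all 3 lists.

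Of the chaperones and coregulators of the receptors, edgeR called 0 at either age. An unadjusted p under 0.05 was found for 8 at 24M, beside 4094 of all 15683 genes tested, and for 6 at 29M, beside 2619 of 15097. Of 20 such genes, all tested at both ages, the median log2 fold change was -0.07 at 24M and -0.05 at 29M. Fkbp4, the co-chaperone that favours hormone binding and nuclear transport, had 141, 125, 133, 149 and 131 CPM at 3M and 116, 116, 109, 121 and 117 at 24M. All 24M samples lay below all 3M samples, with a log2 fold change of -0.23 (SE 0.05, edgeR adjusted p = 0.0284). At 29M Fkbp4 was again lower in 3 of 3 samples (109.9, 108 and 114 CPM against 129.6, 123 and 126), by -0.19 on the log2 scale (SE 0.04, edgeR adjusted p = 0.0189). Separation without overlap, in one direction or the other, was shown by 6.57% of all genes at 24M and 22.4% at 29M. Smarca4, an ATPase of the chromatin remodelling complexes that receptors recruit, passed the adjusted p at 24M (log2 fold change -0.22, SE 0.04, edgeR adjusted p = 0.0175) and not at 29M (-0.08, adjusted p = 0.306). The chaperones Hsp90aa1 (-0.18, SE 0.04, edgeR adjusted p = 0.0292) and Hspa4 (-0.17, SE 0.04, adjusted p = 0.0183) passed it at 29M and not at 24M (-0.06 and -0.10, adjusted p = 0.528 and 0.168). The largest estimate at 24M was upwards, that of the co-chaperone Ptges3 (p23), with means of 24.0 CPM at 3M and 31.8 at 24M (0.42, SE 0.13, edgeR adjusted p = 0.0718), and at 29M Ptges3 was -0.05 (adjusted p = 0.608). All of these stayed under the fold threshold, and their adjusted p moved with single libraries and with the fit. Of the 20, 2 passed it at 24M and 3 at 29M, beside 5.58% and 2.99% of all genes. At 24M 6 of the 20 passed it without 3M replicate 5 and 0 without 24M replicate 2, and at 29M 0 passed without any one of the 29M replicates. Without the sample made of 24M replicates 1 and 4, 0 passed at 24M. With all 4 groups in one fit 5 passed at 24M and 0 at 29M. DESeq2 passed 4 at 24M, and edgeR with replicate number as a block passed 0 there.

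Steroid metabolism and transport gave a single call at each age, out of 12 of 15 listed genes tested, beside 1.98% of all genes called at 24M and 1.45% at 29M. At 24M Cyp11a1, which cuts the side chain of cholesterol in the first step of steroid synthesis, was called lower at a level near the filter. Its values were 2.96, 2.44, 2.23, 2.80 and 2.03 CPM at 3M and 1.25, 1.97, 1.24, 1.47 and 1.83 at 24M. The groups did not overlap, like those of 6.57% of all genes tested, with a log2 fold change of -0.71 (SE 0.18, edgeR adjusted p = 0.0403). Its call was lost without 3M replicate 1 (-0.64, edgeR adjusted p = 0.0935), 2 (-0.72, 0.0632), 3 (-0.75, 0.0505) or 4 (-0.66, 0.0791) and without 24M replicate 2 (-0.81, 0.0596), 3 (-0.63, 0.0932), 5 (-0.70, 0.0632) or 6 (-0.76, 0.0515), and without the sample made of 24M replicates 1 and 4 (-0.64, 0.101). DESeq2 with a prior on fold changes gave Cyp11a1 -0.40 at 24M, under the fold threshold. At 29M Cyp11a1 was -0.62 (edgeR adjusted p = 0.327). Sult1a1, a sulfotransferase of phenols and some hormones, was called higher at 29M, with 3.99, 4.78 and 5.48 CPM at 3M and 7.15, 6.75 and 8.21 at 29M. The groups did not overlap, like those of 22.4% of all genes tested there, with a log2 fold change of 0.64 (SE 0.15, edgeR adjusted p = 0.0405). The call was lost without 3M replicate 1 (0.54, adjusted p = 0.109), 2 (0.65, 0.105) or 3 (0.74, 0.0631) and without 29M replicate 1 (0.66, 0.144) or 3 (0.55, 0.202). DESeq2 did not call Sult1a1 (0.64, DESeq2 adjusted p = 0.129), nor did edgeR with all 4 groups in one fit (0.64, adjusted p = 0.195). At 24M Sult1a1 was 0.39 (edgeR adjusted p = 0.107), and without 3M replicate 4, the library with the high striatal markers, it was called (0.54, adjusted p = 0.0258). Abcb1a, the pump that keeps some glucocorticoids out of the brain, was 0.22 (edgeR adjusted p = 0.0725) at 24M and -0.03 (0.863) at 29M. Akr1c14, which reduces steroids in the 3-position, was 0.69 (0.0794) and 0.02 (0.977). With all 4 groups in one fit edgeR called Akr1c14 at 24M (0.69, adjusted p = 0.0362), as it did without 3M replicate 5 (0.81, adjusted p = 0.0341).

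In corticotropin-releasing hormone and melanocortin signalling, 10 of 15 listed genes could be tested at 24M and 7 at 29M. Crhbp, the secreted protein that binds the hormone and limits its action on Crhr1, had 36.3, 29.0, 37.5, 31.9 and 35.1 CPM at 3M and 51.9, 40.1, 45.9, 39.3 and 43.5 at 24M. All 24M samples were above all 3M samples, a separation that 6.57% of all genes showed in one direction or the other. The log2 fold change was 0.38 (SE 0.09, edgeR adjusted p = 0.0306), under the fold threshold. This single pass of the list at 24M, where 5.58% of all genes passed, was lost without 3M replicate 2 or 4, without 24M replicate 2, 3 or 6 (the adjusted p of Crhbp reached 0.0725) and without the sample made of 24M replicates 1 and 4. With replicate number as a block 0 of the list passed at 24M. At 29M Crhbp was 36.8, 35.8 and 34.6 CPM against 32.9, 29.97 and 27.7, also without overlap, like 22.4% of all genes there. The log2 fold change was 0.24 (SE 0.07, edgeR adjusted p = 0.0962). The ligand precursor Pomc (0.94 and 0.45, edgeR adjusted p = 0.155 and 0.673) and the melanocortin receptor Mc4r (0.51 and -0.05, adjusted p = 0.079 and 0.921) passed at neither age. Single libraries moved the Pomc estimates, which ran from 0.42 (without 24M replicate 5) to 1.11 at 24M and from -0.47 (without 29M replicate 1) to 0.76 at 29M with one library left out. The vasopressin receptor Avpr1a was near 1 CPM at 3M (1.06) and at 0.469 at 24M (log2 fold change -1.26, edgeR adjusted p = 0.0842), and it was too low to be tested at 29M. At 24M edgeR called Mc4r with all 4 groups in one fit (0.51, adjusted p = 0.0444), with 24M replicates 1 and 4 kept apart (0.55, 0.0375) and without 3M replicate 3 (0.70, 0.0177). Avpr1a was called in that one fit (-1.26, edgeR adjusted p = 0.0449) and without 3M replicate 3 (-1.47, adjusted p = 0.0491).

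Among 30 further genes induced by glucocorticoids, all tested at 24M and 29 at 29M, the direction was mixed at 24M. At 24M 1 was called higher and 1 lower, where 1.34% of all genes were called higher and 0.638% lower, the median log2 fold change was -0.0013, and 15 lay above 0. At 29M 2 were called higher and 0 lower, where 1.34% and 0.113% of all genes were, with a median of 0.11 and 22 of 29 above 0. The adjusted p was passed by 4 at 24M and 3 at 29M, beside 5.58% and 2.99% of all genes. At 24M this fell to 1 without 3M replicate 1, 24M replicate 2, 24M replicate 3 or the sample made of 24M replicates 1 and 4, and to 2 without 3M replicate 3, and DESeq2 passed 7. Plin4, a coat protein of lipid droplets, was called at both ages. Its single-end levels were 2.23, 2.23, 2.19, 4.43 and 2.17 CPM at 3M, with replicate 4 highest, and 6.53, 6.60, 6.96, 7.52 and 6.24 at 24M. It rose 2.58-fold (log2 fold change 1.37, SE 0.19, edgeR adjusted p = 0.0023). At 29M it rose 2.36-fold (1.24, SE 0.18, edgeR adjusted p = 0.00236), from 3.57, 3.21 and 3.24 CPM to 6.14, 7.70 and 9.59. DESeq2 with a prior on fold changes gave Plin4 0.39 at 29M, under the fold threshold.

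Xdh, which encodes xanthine dehydrogenase of purine breakdown, was called by edgeR at 29M and not at 24M. It stood at 5.09, 5.37 and 6.02 CPM at 3M and at 10.3, 11.2 and 11.8 at 29M, a rise of 2.03-fold (log2 fold change 1.02, SE 0.12, edgeR adjusted p = 0.000577). At 24M its levels were 11.4, 9.64, 9.48, 13.1 and 10.4 CPM against 5.77, 11.6, 4.94, 4.28 and 4.84, where 3M replicate 2 alone reached the 24M range. The log2 fold change was 0.79 (SE 0.23, edgeR adjusted p = 0.0594), and without that library it was 1.115 (adjusted p = 0.000815). Xdh was called at 24M by DESeq2 (0.79, DESeq2 adjusted p = 0.0132), without the filter (edgeR adjusted p = 0.0298), with all 4 groups in one fit (0.0172) and with 24M replicates 1 and 4 kept apart (0.0311). Its 29M call was lost with all 4 groups in one fit (1.01, edgeR adjusted p = 0.142) and, on fold change, by DESeq2 with a prior on fold changes (0.44). Angptl4, a secreted inhibitor of lipoprotein lipase, was called lower at 24M, from 2.82, 3.53, 3.28, 2.60 and 3.21 CPM to 1.25, 1.82, 0.928, 1.98 and 2.58. The groups did not overlap, like those of 6.57% of all genes tested there (log2 fold change -0.90, SE 0.22, edgeR adjusted p = 0.0346). The call was lost without 3M replicate 1 (-0.93, adjusted p = 0.0623), 2 (-0.86, 0.0635) or 3 (-0.88, 0.0604) and without 24M replicate 2 (-0.94, 0.0823) or 3 (-0.73, 0.0628), and without the sample made of 24M replicates 1 and 4 (-0.81, 0.0902). DESeq2 with a prior on fold changes gave Angptl4 -0.49 at 24M, under the fold threshold. At 29M Angptl4 was 0.14 (edgeR adjusted p = 0.816). Its mean was 3.09 CPM in 3M single-end and 1.66 in 3M paired-end libraries, against 1.71 at 24M and 1.83 at 29M. Library type and experiment both separate the 3M groups. Mertk, a receptor with which astrocytes and microglia engulf debris, passed the adjusted p at both ages under the fold threshold (0.26, edgeR adjusted p = 0.0283, and 0.31, adjusted p = 0.0109). The 6 microglial markers also had higher estimates at both ages, and their part in the change of Mertk was not tested. At 24M Mertk no longer passed without 3M replicate 1 or 4, without 24M replicate 2 or 3 (adjusted p up to 0.0667) or without the sample made of 24M replicates 1 and 4, and at 29M without 29M replicate 3 (0.0523) or with all 4 groups in one fit.

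**Figure D5:**
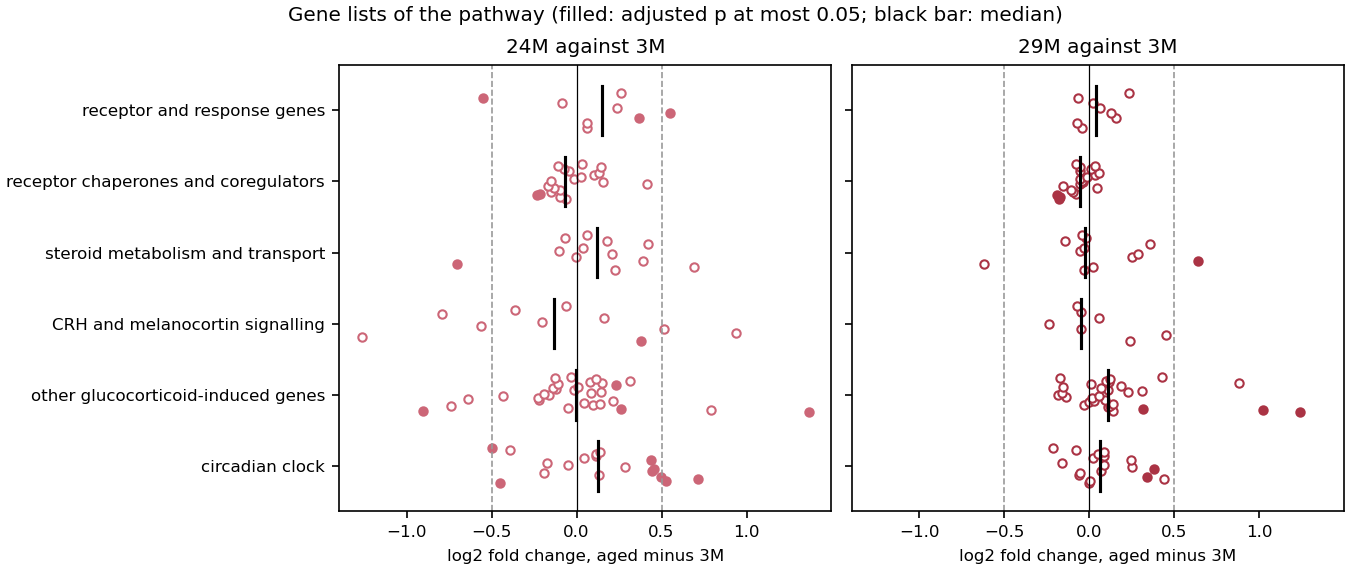
Log2 fold changes, aged minus 3M, of the 8 receptor and response genes and of 5 further lists at 24M (left) and 29M (right), each point a gene, filled where the edgeR adjusted p is at most 0.05, with a black bar at the list's median and dashed lines at 0.5 and -0.5. The medians run from -0.13 to 0.15 at 24M and from -0.05 to 0.11 at 29M.

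Glucocorticoid secretion follows the daily clock, and several glucocorticoid targets are clock genes themselves. Of 18 clock genes, all tested at both ages, 8 passed the adjusted p at 24M, where 5.58% of all genes did, and 2 at 29M, where 2.99% did. Without 24M replicate 2, 4 passed at 24M, and at 29M 3 passed without 3M replicate 2 and 1 without 29M replicate 1. With replicate number as a block 3 passed at 24M, and with all 4 groups in one fit 1 passed at 29M. At 24M the activator Arntl was lower in 5 of 5 samples, with 40.2, 39.6, 40.5, 42.3 and 42.1 CPM at 3M and 29.5, 27.2, 30.7, 28.7 and 34.3 at 24M. Its log2 fold change was -0.45 (SE 0.06, edgeR adjusted p = 0.00237), under the fold threshold. The repressor genes Ciart (0.71, SE 0.10, edgeR adjusted p = 0.00339) and Nr1d2 (0.53, SE 0.10, adjusted p = 0.0154) were called higher. Nr1d2 fell under a threshold without 3M replicate 1 (0.48, edgeR adjusted p = 0.0404) or 3 (0.49, 0.0288) and without 24M replicate 2 (0.49, 0.051). DESeq2 with a prior on fold changes gave Nr1d2 0.45 at 24M, under the fold threshold. Bhlhe41 (0.50, SE 0.06, edgeR adjusted p = 0.000708), just under the fold threshold before rounding, Per3 (0.46, SE 0.09, 0.0172), Per2 (0.44, SE 0.11, 0.0342) and Dbp (0.44, SE 0.09, 0.022) passed the adjusted p upwards and Nfil3 (-0.50, SE 0.12, 0.0336) downwards. Bhlhe41 was called at 24M without 3M replicate 5 (0.512) and without 24M replicate 1 (0.502) or 5 (0.514). It was also called without the sample made of 24M replicates 1 and 4 (0.513). At 29M Bhlhe41 (0.34, SE 0.06, edgeR adjusted p = 0.0101) and Per3 (0.38, SE 0.06, 0.00528) passed it, and Arntl (-0.00063, 0.998) and Nr1d2 (0.0032, 0.983) did not. Ciart was 0.44 at 29M (SE 0.13, edgeR adjusted p = 0.0969), and without 3M paired-end replicate 2 it was called there (0.62, adjusted p = 0.0262).

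Some clock genes stood at different levels in the 3M groups of the experiments, which also differ in library type. Arntl averaged 41.0 CPM in 3M single-end libraries and 27.7 in 3M paired-end libraries, against 30.1 at 24M and 27.6 at 29M. Nr1d2 averaged 70.5 and 114 CPM at 3M, against 102 at 24M and 114 at 29M. Others stood level between the 3M groups, such as Bhlhe41 at 47.8 and 48.2 CPM, Cry1 at 12.4 and 12.7 and Tef at 368 and 380.2. Hsp90aa1, which is no clock gene, stood at 199 CPM in 3M single-end and 865 in 3M paired-end libraries, so levels cannot be compared across library types. The part of these clock gene levels in the changes of Fkbp5, Sgk1 and Crhr1 was not tested.

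Whether the induced genes varied together between samples was examined in the 6 pairs of Fkbp5, Sgk1, Tsc22d3 and Zbtb16, over 16 samples after the mean of each group was subtracted from the log2 CPM. Fkbp5 and Zbtb16 rose and fell together by rank, with a Spearman rho of 0.80 (permutation p = 0.00404, adjusted over the 6 pairs 0.0242) and a Pearson r of 0.66 (permutation p = 0.0135, adjusted 0.0809). Without the 2 samples farthest from the median of Fkbp5, r was 0.50, and it was 0.76 in the 10 single-end samples and 0.16 in the 6 paired-end samples. The relation therefore did not pass by Pearson r and was not seen within the paired-end libraries. Sgk1 and Tsc22d3 gave r = 0.55 and rho = 0.40 (permutation p = 0.0898 and 0.213, adjusted 0.180 and 0.256), with r = 0.23 without 3M replicate 4. Sgk1 and Zbtb16 gave r = -0.64 and rho = -0.59 (permutation p = 0.0568 and 0.0693, adjusted 0.170 and 0.139). For Fkbp5 and Sgk1 r was -0.47 and rho -0.59 (permutation p = 0.274 and 0.0505, adjusted 0.411 and 0.139). The other 2 pairs, of Tsc22d3 with Fkbp5 and with Zbtb16, had r = -0.11 and -0.24 (adjusted 0.740 and 0.551).

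The genes most alike to each member were those with the highest Pearson r of log2 CPM, centred on the mean of the library type, over the 16 samples and 14897 other genes. This likeness is a description, since the points share the libraries and their depth and cell mix. For Nr3c1 these were Zfp354c, Galnt13 and Sp4 (each r = 0.89), and for Nr3c2 they were Ppfia2 (0.91), Ankrd17 (0.90) and Dab1 (0.90). Fkbp5 was nearest to Golm1 (0.92), Hk2 (0.91) and Nectin4 (0.91). Sgk1 was nearest to Nfkbia (0.90), which encodes the inhibitor of NF-kappaB and stands in the list of further induced genes, then to Bnip3 (0.88) and Rps20 (0.87). Tsc22d3 was nearest to Adipor2 (0.91), Plekhf1 (0.86) and Dclre1b (0.84). The lowest values were those of Hsd11b1, with Mmp16 (0.79), Cog5 (0.75) and Emx2os (0.73). Crhr1 was nearest to Slc43a2 (0.92), Snx15 (0.90) and Nat8l (0.89), and Zbtb16 to Cpne7 (0.89), Adamts14 (0.86) and Prkag2 (0.85).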

How the data were processed

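The authors aligned reads with STAR 2.3.0 to GRCm38.p2, per the submitters' processing notes, used HTSeq for gene counts and deposited raw counts for each library. Lines naming no gene stayed out (no feature: 8.59% to 15.9% of a library). The test was edgeR 4.0.16 (quasi-likelihood with TMM and filterByExpr) in R 4.3.3, with DESeq2 1.42.0 as an alternative. An SE is the size of the log2 fold change over the root of F. Coordinates and exon lengths come from GENCODE M21. The 8 members, the lists and the tests were chosen with earlier results of these data known. Named genes are the members, per pathway list every called gene and, below 4, those of smallest p, and the 3 genes most alike each member. Clock genes that passed the adjusted p, 3M levels, marker genes and Ptges3 were added after their values were seen. On simulated data with log2 changes of 0.75, 78 of 100 genes were recovered for 24M (15555 genes) and 77 of 98 for 29M (14967). The alternatives were other size factors, filters, fits, a replicate block and each library left out. The number of counts limits the precision of genes near 1 CPM. Of the oligodendrocyte and microglial markers, 1 each is not reported here, and their counts and sums leave it out.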

Additional observations from a re-analysis of the deposited data

Results flagged for a closer look

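In the 24M group the lowest Sgk1 value, 114 CPM in replicate 2, lay far from the other 4 samples (127 to 132 CPM): its gap to the nearest was 0.729 of the group's range. It was the single such value among 16 groups of 5 samples examined (8 genes, 2 groups), and chance gives about 1 in 20.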

How the results depend on the processing

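Both member calls at 24M held with DESeq2, with its size factors in edgeR, with either other filter, with all 4 groups in one fit and with 24M replicates 1 and 4 kept apart. DESeq2 with a prior on fold changes called 90 genes higher, 30 lower and 0 members at 24M, and 23 higher and 1 lower at 29M. With 24M replicates 1 and 4 left out these were 112, 51 and 0. All 4 groups in one fit gave 345 higher and 173 lower at 24M and 83 and 3 at 29M, where Nr1d2 turned to -0.00075. No filter gave 368 and 73 at 29M, where 1 member (Zbtb16, 0.23, edgeR adjusted p = 0.00519), 6 other induced genes (3 with the filter), 5 clock genes (2) and 1 gene of corticotropin-releasing hormone signalling (0) then passed the adjusted p. Without a fold change threshold, 504 and 371 genes passed at 24M and 351 and 100 at 29M. With replicate number as a block, 58 genes were higher, 25 lower and 1 member called at 24M. Crhr1 (-0.57, edgeR adjusted p = 0.114) was then not called, Fkbp5 (0.39) had an adjusted p of 0.132, Cyp11a1, Angptl4 and Nr1d2 were not called, and Sgk1 (0.73, adjusted p = 0.0157) was. Same-numbered samples did not deviate together (correlations -0.14 to 0.05 at 24M and -0.07 to 0.10 at 29M). Pairing by number was thus not shown, though so few correlations cannot exclude it. Leaving out one library gave 91 to 394 higher, 28 to 174 lower and 0 to 2 members called at 24M, and 113 to 207 higher and 7 to 27 lower at 29M. The difference between ages then gave 0 to 92 genes (92 without 3M single-end replicate 5, none of them a member), and 0 to 2 pairs passed by Pearson r (1 without 3M single-end replicate 1, 2 without 29M replicate 1). Signs turned for Nr3c2 at 24M (-0.0033 to 0.12), and at 29M Hsd11b1 (-0.072 to 0.089), Crhr1 (-0.21 to 0.084), Sgk1 (-0.0023 to 0.23), Tsc22d3 (-0.044 to 0.19), Abcb1a (-0.069 to 0.031), Akr1c14 (-0.14 to 0.17), Mc4r (-0.23 to 0.12), Arntl (-0.067 to 0.042), Pomc (-0.47 to 0.76) and Nr1d2 (-0.051 to 0.054). The same held for the difference between ages of Zbtb16 (-0.15 to 0.044) and for r of Tsc22d3 with Zbtb16 (-0.49 to 0.0086) and with Fkbp5 (-0.44 to 0.026). The cause was not tested.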
